A study of Rattus norvegicus with 7 samples.

Results

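The transcripts of the cytosolic ribosomal proteins were followed in NR8383 cells, a line of macrophages from rat alveoli, cells that take up particles reaching the lung. ZnO-exposed cells had been kept for 4 h with zinc oxide nanoparticles (ZnO NPs) in medium without fetal bovine serum (3 arrays), and control cells had been kept for 4 h in the same medium with no particles (4 arrays). The sample labels give a dose of 2 µg/mL of ZnO NPs, and the methods of the study state a different one, so the arrays were grouped only as ZnO and control. Each array held the labelled RNA of 1 replicate of this single cell line, and no animals or primary cells were involved. Members were all probes of the one-color rat array whose deposited gene name is that of a protein of the large or small cytosolic ribosomal subunit, of the stalk (Rplp0, Rplp1 and Rplp2) or Rpsa. The rule took 199 of the 45598 non-control probes, and these stand for 82 genes and 830 spots. The large subunit had 122 probes of 47 genes, the stalk 4 probes of 3 genes and the small subunit 73 probes of 32 genes.

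A ribosome reads mRNA on its small subunit and joins amino acids on its large subunit, and each subunit is built from ribosomal RNA and many proteins. Cells make the mRNAs of these proteins in large and balanced amounts. Most of these mRNAs start with a C followed by a run of pyrimidines, the terminal oligopyrimidine (TOP) tract, through which mTOR signalling sets how much of each is translated. Translation can therefore change while the amount of the mRNA does not, and an array measures only the amount. In RNA from a whole culture, fewer cells of a type and less RNA per cell cannot be told apart.

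As a check of the labels, the metallothioneins, which bind zinc and are induced by it, were clearly separated. Mt2A stood at 2.36, 2.25 and 2.32 on the ZnO arrays, against -3.17, -3.69, -3.59 and -3.63 on the control arrays, in log2 intensity relative to the 75th percentile of the array. Mt1a stood at 6.09, 5.84 and 5.88 on the ZnO arrays, against 2.60, 2.40, 2.74 and 2.39 on the control arrays. Both rose past the threshold (limma, adjusted p = 3.9e-06 for Mt2A and 3.7e-05 for Mt1a). The 75th percentile of intensity lay between 980 and 1603 on the ZnO arrays and between 958 and 1489 on the control arrays, and no spot was saturated. Of the macrophage markers, 13 of the 15 on the array were above background on all 7 arrays, among them Ptprc, Cd68 and Lyz2. Itgax, Marco and Chi3l3 of the marker list were not among these 13. Each was either missing from the array or not above background on all 7 arrays. The lymphocyte markers Cd3d and Cd4, the epithelial marker Foxj1, the fibroblast markers Col1a2 and Dcn and the endothelial markers Cdh5, Pecam1 and Vwf also gave signal on all arrays, and the other lymphocyte, epithelial, fibroblast and endothelial markers did not. All arrays lay on 1 slide, and the ZnO arrays filled part of one row and the control arrays the other, so exposure and row cannot be told apart.

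Several probes carry the same gene name, and the probe sequences show which of them overlap. Among the members, 58 genes had 2 or more probes, and 81 probes of 28 genes shared at least 20 bases in a row with another probe of the same gene. Each probe is 60 bases long, and positions are those of the deposited files on rn4. For 5 genes, Rps27 among them, the probes were placed on 2 chromosomes. Whether such probes read related copies of the gene was not tested. Rps27, a zinc-finger protein of the small subunit, had 5 probes in 2 overlapping sets. The 3 probes at the end of the transcript, of which A_44_P1087158 is placed on chromosome 20, have 24 bases in common and then part ways. Here 30 bases of each are given, and the capitals mark the last bases that all 3 share.
Rps27 probe A_44_P1097208 (chr2:182451536-182451595, minus strand): GATTCAAGATGAGTGGgaaccttcccaata
Rps27 probe A_44_P1096849 (chr2:182451506-182451535, minus strand): GATTCAAGATGAGTGGaaccttcccaataa
Rps27 probe A_44_P1087158 (chr20:11421328-11421386, minus strand): GATTCAAGATGAGTGGgaacgttcccaata
The other pair of Rps27 probes reads a stretch further upstream, and the second of these is placed across an intron. Capitals mark the longest stretch the pair shares, 20 bases, after which single bases differ.
Rps27 probe A_44_P1156723 (chr2:182451978-182452037, minus strand): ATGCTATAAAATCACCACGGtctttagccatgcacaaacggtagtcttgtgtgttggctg
Rps27 probe A_44_P1095718 (chr2:182451983-182452181, minus strand): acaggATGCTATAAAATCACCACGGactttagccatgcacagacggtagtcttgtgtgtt

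Rps14, also of the small subunit, had 3 probes on chromosome 18 of rn4. The first pair shares 50 bases, in capitals, so these probes are nearly the same measurement, and the third reads another stretch.
Rps14 probe A_44_P334709 (chr18:56727673-56729533, plus strand, across an intron): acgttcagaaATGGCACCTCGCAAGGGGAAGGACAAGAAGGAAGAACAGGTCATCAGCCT
Rps14 probe A_44_P1160762 (chr18:56729484-56729543, plus strand): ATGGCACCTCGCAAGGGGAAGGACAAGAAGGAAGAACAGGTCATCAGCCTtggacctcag
Rps14 probe A_64_P003090 (chr18:56729615-56730383, plus strand, across an intron): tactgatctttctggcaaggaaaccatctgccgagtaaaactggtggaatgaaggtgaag

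No ribosomal protein transcript changed past the threshold. At an adjusted p under 0.05 (limma with Benjamini-Hochberg adjustment over 20050 probes), 0 of the 197 member probes that could be tested were called, where 0.0499% of all tested probes were called, all of them higher (8 higher and 1 lower with arrays centred on their medians). Nor did any member reach the thresholds of the study, an adjusted p under 0.001 with a fold change over 1.5, where 0.02% of all tested probes did. The smallest adjusted p of a member was 0.75. At an unadjusted p under 0.05 there were 3 member probes, 1.52% of the members, beside 5.92% of all tested probes. The remaining 2 members, 1 probe of Rpl28 and 1 of Rpl36a, were not above background on any array and were not tested, but both genes had other probes that were. All 82 genes had at least 1 tested probe, and 196 member probes were above background on all 7 arrays.

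With arrays scaled to their 75th percentile, the fold changes of the members were small. The log2 fold change of ZnO over control ran from -0.17 to 0.29, with a median of 0.028 over the members (-0.0091 when arrays were centred on their medians) and -0.0064 over all tested probes. Of the 197 member probes, 142 lay above 0 and 55 below, while 87 lay above 0 with arrays centred on their medians and 195 with centring on the spike-in probes. The 95% interval of limma stayed inside a 1.5-fold change in either direction for 194 member probes, or 98.5%, and for 82.6% of all tested probes. This bound depends on the scaling, since with centring on the spike-in probes, under which the arrays spread widely, the interval stayed inside a 1.5-fold change for 0 of 197. With the 75th percentile it stayed inside a 1.25-fold change for 157 member probes, or 79.7%, and for 44.9% of all tested probes. With this scaling the intervals of 3 member probes passed a 1.5-fold change. They were 1 probe each of Rpl32 (upper log2 bound 0.69), Rpl37a (upper log2 bound 0.66) and Rpl7a (lower log2 bound -0.60). The median standard error was 0.094 over the members and 0.106 over all tested probes.

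**Figure D1:**
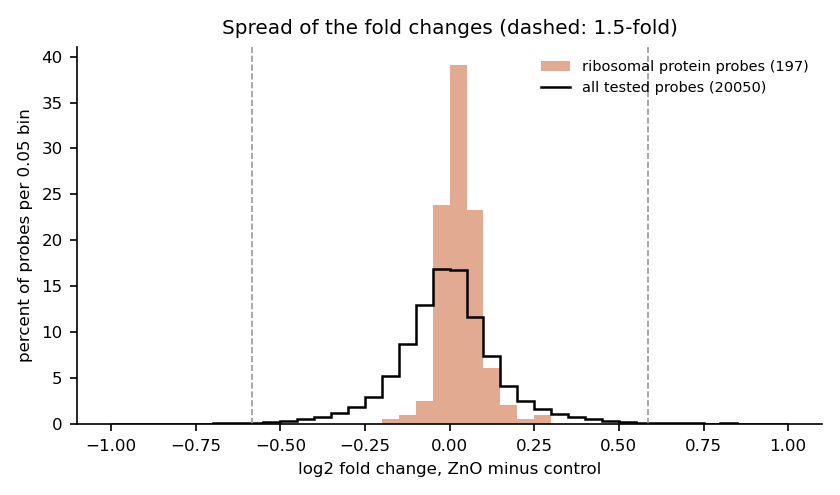
Log2 fold change (ZnO minus control) on the horizontal axis and percent of probes per bin of 0.05 on the vertical axis, for the 197 ribosomal protein probes (filled) and all 20050 tested probes (black outline); the dashed lines stand at a 1.5-fold change and 30 probes of the whole array lie beyond the plotted range. The ribosomal protein probes fill a narrow band from -0.17 to 0.29, inside both dashed lines.

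The mean of all tested probes of a gene gave 1 value for each of the 82 genes. These means ran from -0.12 for Rplp0 to 0.21 for Rpl37a, 62 of them lay above 0, and the 95% interval of 68 stayed inside a 1.25-fold change. For 1 gene, Rpl36al, the ZnO arrays did not overlap the control arrays and the unadjusted p was 0.0497 (limma, adjusted p = 0.83), beside 7.52% of all genes without overlap and 6.02% with an unadjusted p under 0.05. Rpl36al has 1 probe, so its mean is that probe. In the fit of single probes the same values gave an unadjusted p of 0.053 (limma) and a 95% interval from -0.0029 to 0.31.

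**Figure D2:**
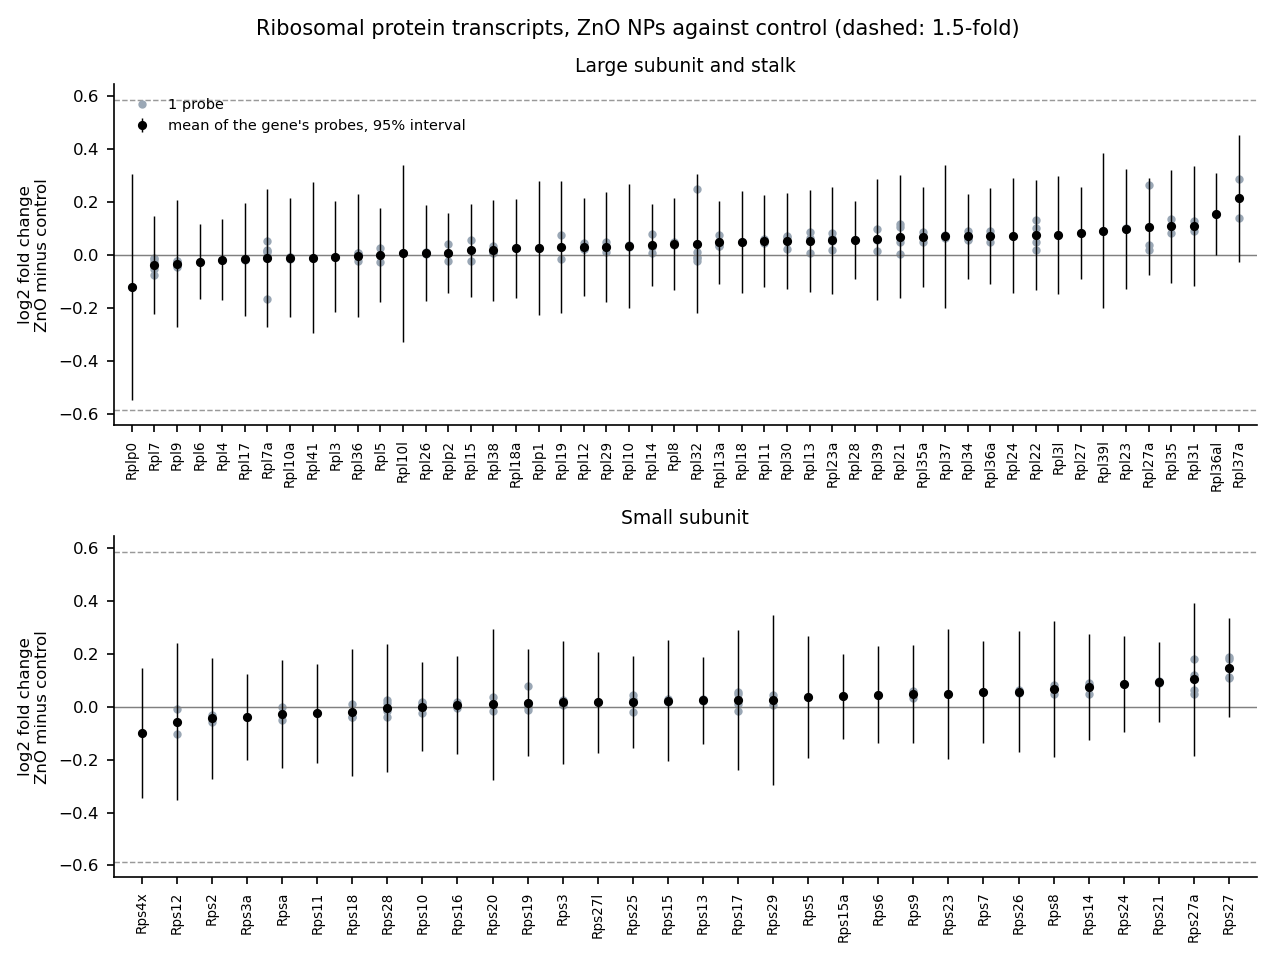
Log2 fold change (ZnO minus control) of the 82 ribosomal protein genes, ordered by size within the large subunit with the stalk (upper panel) and within the small subunit (lower panel); black points are the mean of the tested probes of a gene with the 95% interval of limma over 3 ZnO and 4 control arrays, grey points are single probes, and dashed lines stand at a 1.5-fold change. Every interval of a gene mean stays between the dashed lines, and all cross 0 but that of Rpl36al, whose lower bound is 0.00026.

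Without a model, the ZnO arrays lay above all control arrays for 6 member probes and below all of them for 0 (3.05% of the members, beside 7.39% of all tested probes, which split into 3.8% higher and 3.59% lower). The 6 probes belong to Rps27 (2 probes), Rpl27a, Rpl36al, Rpl35 and Rps21.

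Among the large subunit proteins outside the stalk, the median log2 fold change was 0.034 over 120 tested probes, of which 89 lay above 0. Rpl27a, a protein of the large subunit, had the member probe with the smallest p. Probe A_44_P1366918 stood at 0.70, 0.69 and 0.73 on the ZnO arrays, against 0.58, 0.46, 0.48 and 0.25 on the control arrays, each the mean of up to 10 spots. The groups did not overlap, and the ZnO arrays lay close together. Its log2 fold change was 0.27 ± 0.089 (SE), with a 95% interval of 0.059 to 0.47 and an unadjusted p of 0.018 (limma, adjusted p = 0.75). The other probes of the gene did not show this difference. Probe A_44_P1082703 stood at 6.31, 6.25 and 6.20 on the ZnO arrays, against 6.27, 6.26, 6.31 and 6.11 on the control arrays, with a log2 fold change of 0.017. Probe A_44_P1367078 stood at 6.48, 6.27 and 6.20 on the ZnO arrays, against 6.25, 6.29, 6.42 and 6.17 on the control arrays, with a log2 fold change of 0.037. The groups overlapped at both of these probes. The sequences are shown because the probe with the difference and the one after it are direct neighbours on the transcript. Capitals mark the 5 bases they share, and of the last probe only the first 30 bases are given.
Rpl27a probe A_44_P1367078 (chr1:167116751-167117714, plus strand, across an intron): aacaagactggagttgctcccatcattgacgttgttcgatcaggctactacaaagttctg
Rpl27a probe A_44_P1366918 (chr1:167117745-167117804, plus strand): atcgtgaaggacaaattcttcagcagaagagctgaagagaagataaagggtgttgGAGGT
Rpl27a probe A_44_P1082703 (chr1:167117800-167117859, plus strand): GAGGTgcctgtgtcctggtggcttaaagcc

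Rpl36al, a close relative of Rpl36a with its own gene, was measured by 1 probe of 10 spots (chr6:91135737-91135796 of rn4, minus strand). It stood at 2.77, 2.87 and 2.84 on the ZnO arrays, against 2.66, 2.74, 2.67 and 2.61 on the control arrays. The ZnO arrays were all above the control arrays, with a log2 fold change of 0.15 ± 0.067 (SE, unadjusted p = 0.053, limma, adjusted p = 0.85). The 3 tested probes of Rpl36a had log2 fold changes of 0.047, 0.075 and 0.090, and their groups overlapped. Rpl35, a large subunit protein near the exit of the nascent chain, had 1 probe without overlap, at 4.22, 4.14 and 4.11 on the ZnO arrays, against 4.03, 3.93, 4.08 and 4.05 on the control arrays (log2 fold change 0.13). Its other probe, with a log2 fold change of 0.082, overlapped.

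The highest log2 fold change of all members, 0.29 ± 0.16 (SE), belonged to a probe of Rpl37a, a zinc-binding protein of the large subunit. This probe (A_64_P015051, chr9:71841866-71841925 of rn4) stood at -4.82, -5.02 and -5.11 on the ZnO arrays, against -5.23, -5.28, -5.63 and -4.95 on the control arrays. It is the only tested member that was not above background on all arrays, failing on 1 control array, and the groups overlapped. The other Rpl37a probe (chr5:146450567-146450626) stood at 7.09, 6.87 and 6.84 on the ZnO arrays, against 6.86, 6.86, 6.77 and 6.69 on the control arrays, with a log2 fold change of 0.14 ± 0.089 (SE). These probes are annotated to different transcripts on different chromosomes, and whether they read the same gene was not tested. The gene mean of 0.21 averages them.

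Rpl32, another large subunit protein, had 6 probes, and 5 of them had log2 fold changes between -0.023 and 0.040. The sixth, A_44_P1151132, had 0.25 ± 0.19 (SE). It stood at 5.54, 5.32 and 5.33 on the ZnO arrays, against 5.10, 5.21, 4.69 and 5.58 on the control arrays, so that control replicate 3 was low and control replicate 4 was above all ZnO arrays. Over 56 bases it reads the same place as probe A_44_P1086401, which stood at 7.20, 6.94 and 6.78 on the ZnO arrays, against 6.93, 6.86, 6.98 and 7.16 on the control arrays. Only 2 bases differ there, T20C and T33A (the base of A_44_P1086401, the position from the 5′ end of A_44_P1151132 and its own base). They are the capitals in the 30 bases shown for each.
Rpl32 probe A_44_P1086401 (chr6:145183246-145183305, minus strand): tagatggcttgtgtgcctgttttgtgttca
Rpl32 probe A_44_P1151132 (chr6:145183250-145183309, minus strand): tagatggcCtgtgtgcctgttAtgtgttca

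Rpl7a, a large subunit protein, had 7 probes, the most of any member, and held the lowest log2 fold change. Probe A_64_P015603 stood at 4.74, 4.56 and 3.91 on the ZnO arrays, against 4.56, 4.48, 4.69 and 4.54 on the control arrays, with a log2 fold change of -0.17 ± 0.19 (SE). The value rests on ZnO replicate 3, since the other ZnO arrays lay within or above the control arrays. Probe A_44_P1361968 differs from it by 2 bases, A44G and C49T, and had a log2 fold change of 0.015. Probe A_44_P1369447 differs by 6 bases, A23G, C25T, A28G, A42G, C49T and G60A, and had a log2 fold change of 0.011. Positions are counted from the 5′ end, with the base of A_64_P015603 first, and the differing bases are in capitals.
Rpl7a probe A_64_P015603 (chr3:5810185-5810399, plus strand): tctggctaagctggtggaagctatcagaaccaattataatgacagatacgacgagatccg
Rpl7a probe A_44_P1361968 (chr3:5810185-5810399, plus strand): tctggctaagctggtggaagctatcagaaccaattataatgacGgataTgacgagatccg
Rpl7a probe A_44_P1369447 (chr3:5810185-5810398, plus strand): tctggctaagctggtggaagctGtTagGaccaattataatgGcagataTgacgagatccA
The remaining 4 probes of Rpl7a lay between -0.0081 and 0.053. Rpl7, a different large subunit protein in spite of the name, had 6 tested probes, all below 0, with log2 fold changes between -0.077 and -0.013 and overlapping groups.

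Some large subunit proteins have known roles outside protein synthesis, and 4 of them were not called. Rpl5 and Rpl11, which with 5S ribosomal RNA can bind the p53 regulator Mdm2, had gene means of -0.0010 ± 0.076 and 0.052 ± 0.074 (log2 fold change, SE). Rpl23, which also binds Mdm2, had 0.098 ± 0.097. Rpl22, an RNA-binding protein of the large subunit, had 0.075 ± 0.089. Rpl5, Rpl11, Rpl23 and Rpl22 were picked for their roles after the values were seen.

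The stalk, the flexible arm of the large subunit that recruits the translation factors that use GTP, had 4 probes of 3 genes, with log2 fold changes between -0.12 and 0.041. Rplp0, which anchors the stalk to the ribosome, stood at 7.88, 7.59 and 7.24 on the ZnO arrays, against 7.90, 7.41, 7.56 and 7.89 on the control arrays. Both groups were widely spread and overlapped, and its log2 fold change of -0.12 ± 0.18 (SE) was the lowest gene mean. Rplp1, a protein of the stalk tip, stood at 7.15, 6.88 and 6.71 on the ZnO arrays, against 6.88, 6.80, 6.96 and 6.92 on the control arrays, with a log2 fold change of 0.025. Its partner Rplp2 had log2 fold changes of 0.041 and -0.025 at its 2 probes.

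In the small subunit, the median log2 fold change was 0.025 over 73 tested probes, of which 51 lay above 0. Rps27 had the highest gene mean of this subunit, 0.15, and all 5 of its probes lay above 0, between 0.11 and 0.19. Probe A_44_P1096849 stood at 5.03, 4.86 and 4.88 on the ZnO arrays, against 4.69, 4.78, 4.80 and 4.68 on the control arrays. Probe A_44_P1095718, with 10 spots, stood at 4.55, 4.46 and 4.46 on the ZnO arrays, against 4.27, 4.38, 4.39 and 4.18 on the control arrays. At both probes every ZnO array was above every control array, and the log2 fold changes were 0.19 ± 0.075 and 0.18 ± 0.077 (SE), with unadjusted p of 0.039 and 0.048 (limma, adjusted p = 0.83 and 0.84). At the other 3 probes the groups overlapped. Probe A_44_P1156723, which shares 20 bases with A_44_P1095718, stood at 5.35, 5.25 and 5.18 on the ZnO arrays, against 5.07, 5.25, 5.26 and 5.01 on the control arrays. Its log2 fold change was 0.11. Because the probes of this gene overlap in sequence, the 5 values are not 5 independent measurements. Probe A_44_P1087158, placed on another chromosome than the others, had a log2 fold change of 0.15. Rps27l, a relative of Rps27, stood at 4.71, 4.72 and 4.69 on the ZnO arrays, against 4.52, 4.73, 4.70 and 4.82 on the control arrays, with a log2 fold change of 0.017.

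Rps14, a protein of the platform of the small subunit, had log2 fold changes of 0.084, 0.048 and 0.089 at its 3 probes. Probe A_44_P1160762 stood at 4.58, 4.52 and 4.55 on the ZnO arrays, against 4.57, 4.48, 4.55 and 4.27 on the control arrays. Probe A_44_P334709 stood at 4.23, 4.23 and 4.28 on the ZnO arrays, against 4.35, 4.26, 4.25 and 3.93 on the control arrays. At both, control replicate 4 was the lowest array and the groups overlapped. Probe A_64_P003090 stood at 5.30, 5.12 and 5.12 on the ZnO arrays, against 5.10, 5.06, 5.20 and 5.00 on the control arrays, with overlap. The 95% intervals of the 3 log2 fold changes ran from -0.20 at the lowest to 0.30 at the highest.

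**Figure D3:**
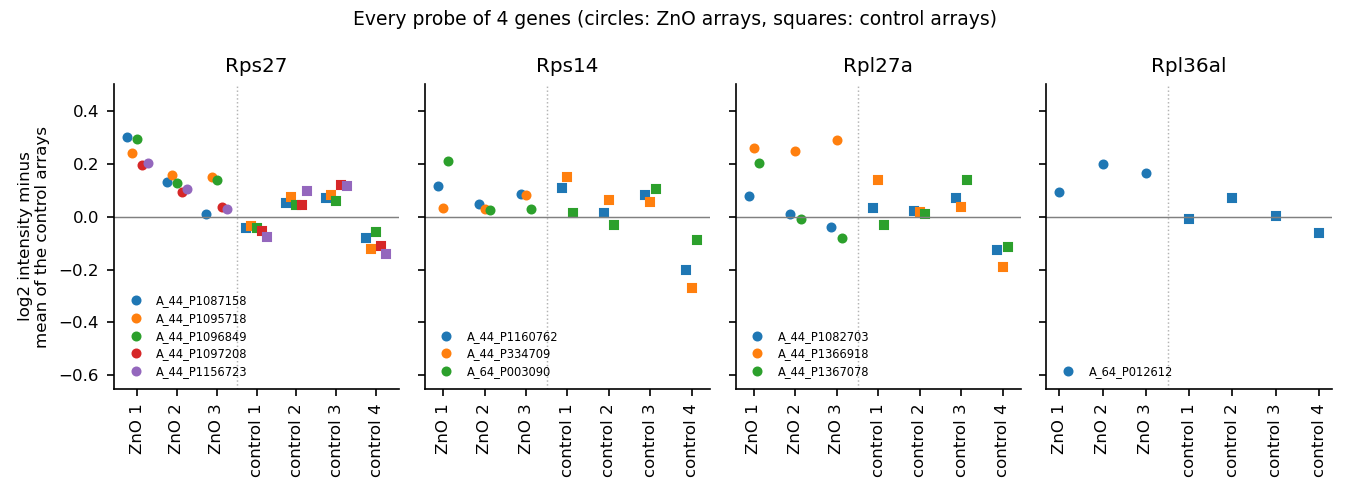
Vertical axis, difference in log2 intensity from the control mean, for every probe of Rps27, Rps14, Rpl27a and Rpl36al on the 3 ZnO arrays (circles) and the 4 control arrays (squares), with 1 color for each probe. The 5 Rps27 probes move together from array to array, with ZnO replicate 1 highest, whereas 1 probe of Rpl27a stands above the others of its gene on all 3 ZnO arrays.

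Rps27a is made as a fusion of ubiquitin to a small subunit protein and had 4 probes, with log2 fold changes between 0.049 and 0.18. The highest of them, A_64_P144208, stood at 4.61, 4.41 and 4.18 on the ZnO arrays, against 4.30, 4.17, 4.49 and 3.93 on the control arrays, with overlap. Rps21, a small subunit protein, had 1 probe without overlap, at 5.55, 5.49 and 5.41 on the ZnO arrays, against 5.36, 5.39, 5.41 and 5.38 on the control arrays. The lowest ZnO array and the highest control array were equal at 2 decimals, and the log2 fold change was 0.099 ± 0.065 (SE).

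At the low end of the small subunit stood Rps12, Rps4x and Rps2. Rps12 had a probe at 7.71, 7.53 and 7.14 on the ZnO arrays, against 7.50, 7.39, 7.58 and 7.78 on the control arrays, with a log2 fold change of -0.10 ± 0.15 (SE). The other Rps12 probe had -0.0099. Rps4x, encoded on the X chromosome, stood at 4.46, 4.21 and 4.17 on the ZnO arrays, against 4.28, 4.25, 4.48 and 4.51 on the control arrays, with a log2 fold change of -0.099 ± 0.11 (SE). Rps2, a protein at the mRNA entry side, had a probe at 5.59, 5.38 and 5.26 on the ZnO arrays, against 5.47, 5.41, 5.58 and 5.40 on the control arrays, with a log2 fold change of -0.057. The other Rps2 probe had -0.030. In all 3 the groups overlapped. Rpsa, first known as a laminin receptor precursor, had log2 fold changes of -0.0024 and -0.052 at its 2 probes. Rps6, the substrate of S6 kinase, had a gene mean of 0.045 ± 0.079 (SE), and Rps19, a gene altered in Diamond-Blackfan anemia in humans, had 0.015 ± 0.087. Rps6 and Rps19 were picked for their roles after the values were seen.

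Several members have a relative with a similar name and a narrower expression in the body, and no probe of one of these pairs shared more than 11 bases in a row with a probe of the other. Rpl3, a protein that reaches the catalytic center, stood at 6.07, 5.79 and 5.82 on the ZnO arrays, against 5.85, 5.86, 6.01 and 5.88 on the control arrays, with a log2 fold change of -0.0067. Its muscle relative Rpl3l stood at -4.77, -4.84 and -5.05 on the ZnO arrays, against -5.09, -4.86, -4.90 and -5.00 on the control arrays. The log2 fold change of Rpl3l was 0.075. It was above background on all arrays, but nearly as dim as the Rpl37a probe that failed on a control array. Rpl10, which is added late to the large subunit, had 0.037 and 0.030 at its 2 probes, and its relative Rpl10l had 0.0056. Rpl39, a small protein of the exit tunnel, had values between 0.014 and 0.099 at 4 probes, and its relative Rpl39l had 0.091 ± 0.13 (SE). In none of these pairs did the ZnO arrays separate from the control arrays.

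What the members did share was a pattern over the single arrays. On ZnO replicate 1, 189 of the 197 member probes (95.9%) lay above their own control mean, with a median difference of 0.16 log2 units. On ZnO replicate 2 it was 93 probes (47.2%), with a median of -0.0083, and on ZnO replicate 3 it was 47 probes (23.9%), with a median of -0.048. The control medians were -0.027, -0.042, 0.055 and -0.0041, so ZnO replicate 1 lay above them all, ZnO replicate 2 among them and ZnO replicate 3 slightly below the lowest. Both subunits showed this. On ZnO replicate 1 the median was 0.17 for the large subunit with the stalk and 0.16 for the small subunit, and all 73 small subunit probes lay above their control mean. The spread between the ZnO arrays was wider than that between the control arrays for 138 of the 197 member probes, beside 51.5% of all tested probes. The median SD of the members was 0.133 for ZnO and 0.0974 for control. Over all tested probes the median SD was 0.134 for ZnO and 0.130 for control.

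Probes of other genes moved with this pattern in part. Over all tested probes the medians were 0.018, -0.025 and -0.0056 on the ZnO arrays, against -0.0040, 8.1e-05, -0.0043 and 0.018 on the control arrays. The 706 other tested probes with a control mean above 4, a limit set after the array medians were seen, had medians of 0.11, -0.036 and -0.061 on the ZnO arrays, against -0.039, -0.033, 0.018 and 0.048 on the control arrays. With quantile normalization, which gives every array the same distribution of intensities, the median of the members was 0.033, 0.011 and 0.018 on the ZnO arrays, against 0.0098, 0.0054, 0.032 and -0.061 on the control arrays. With arrays centred on their medians it was 0.043, 0.025 and -0.072 on the ZnO arrays, against -0.037, -0.014, 0.13 and -0.10 on the control arrays, so that control replicate 3 was then the highest. With centring on the spike-in probes ZnO replicate 1 was the lowest array, at -0.64, and the median of all tested probes on it was -0.79. ZnO replicate 1 was also given the lowest weight, 0.35, when limma weighted the arrays by their agreement.

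**Figure D4:**
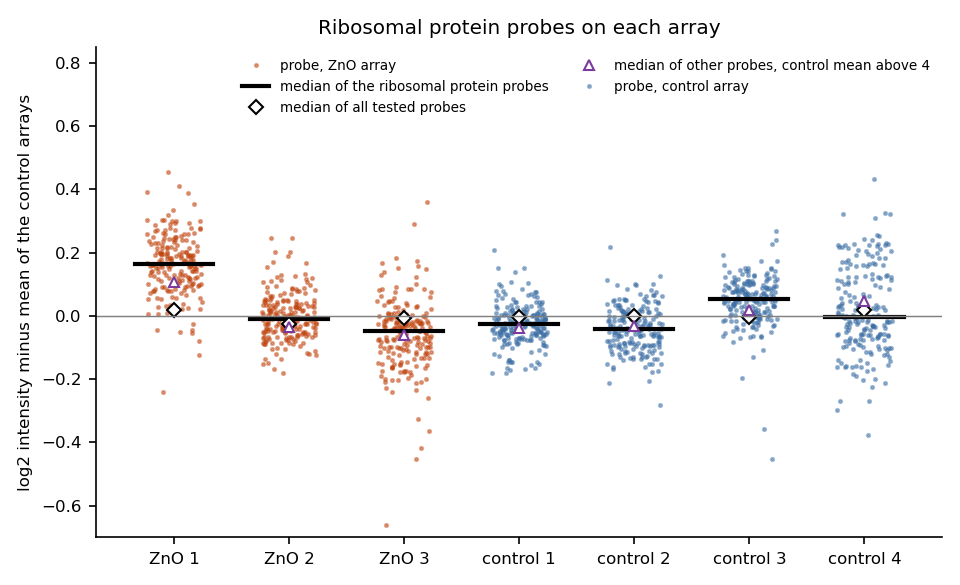
Vertical axis, difference in log2 intensity from the control mean, for the 197 ribosomal protein probes on each of the 3 ZnO and 4 control arrays; each dot is 1 probe, black bars are the medians of the ribosomal protein probes, open diamonds those of all tested probes and open triangles those of the 706 other probes with a control mean above 4. ZnO replicate 1 stands apart, with a median of 0.16, and ZnO replicate 3 is the lowest at -0.048.

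The median fold change of the members followed this array. Without ZnO replicate 1 it was -0.034, with 63 of 197 probes above 0, and without ZnO replicate 3 it was 0.074, with 183 above 0. Member probes whose groups did not overlap numbered 23 without ZnO replicate 1 (6 higher and 17 lower, beside 22% of all tested probes). They numbered 17 without ZnO replicate 3, 14 without control replicate 3 and 13 without control replicate 4, beside 13.2%, 11.3% and 12.2% of all tested probes. The count of called members was 0 in each case.

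Ribosomal proteins whose genes have other symbols lay in the same range. Of 5 tested genes, 0 were called. Fau, which encodes a ubiquitin-like protein fused to Rps30, had a log2 fold change of 0.0014. Gnb2l1, the scaffold protein RACK1 of the small subunit, had -0.065, Rpl7l1 had -0.056 and Rpl22l1 had 0.082.

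The lists of genes around the ribosome also held no called member (limma, adjusted p, with the brightest tested probe of each gene). The 12 tested elongation and termination factors had a median log2 fold change of -0.033 and a range from -0.20 for Eef2, which moves the ribosome along the mRNA, to 0.061 for Eef1g. Eef2 stood at 4.68, 4.45 and 4.39 on the ZnO arrays, against 4.61, 4.63, 4.82 and 4.77 on the control arrays. The 47 tested genes of ribosome biogenesis and rRNA synthesis had a median of 0.062, with 34 above 0, from -0.20 for Polr1e to 0.28 for Taf1b. Both encode parts of the RNA polymerase I machinery, and Nop56, a protein of small nucleolar ribonucleoproteins, had 0.16. The 15 other genes with TOP mRNAs had a median of -0.029, with 2 above 0, from -0.12 for Vim to 0.072 for Hnrnpa1. The 11 tested sensors of ribosome and translation stress had a median of 0.016, from -0.083 for Gcn1l1 to 0.15 for Eif2ak2, the kinase PKR. The 68 tested mitochondrial ribosomal proteins, which serve the ribosomes of mitochondria, had a median of 0.029, from -0.30 for Mrps2 to 0.20 for Mrpl18. Their probes did not show the pattern over arrays of the cytosolic ones, with medians of 0.032, -0.0015 and 0.028 on the ZnO arrays, against -0.060, 0.029, 0.043 and 0.0019 on the control arrays. That difference between the lists was not tested, and the mitochondrial list was also dimmer. Mrpl10, its brightest gene, had a control mean of 4.07, where the median of the cytosolic probes on the control arrays was 5.57.

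A feature of these genes that the choice of members did not use is the start of the mRNA. The RefSeq table of promoters (build GRCr8) held 64 of the 82 genes, with 250 bases before and 50 after each start. A C followed by at least 4 bases that are each C or T, on the sense strand and beginning within 5 bases of the start, was found in 40 of the 64 genes (62.5%) and in 17.0% of all 33469 starts in the table. Beginning at the start base itself it was found in 24 genes (37.5%) and in 2.63% of all starts. The 30 bases around the start are shown for 4 genes described above, with 12 bases before the start and 1 match to this rule in capitals.
Rps27 (GRCr8 chr2:177964589-177964618, minus strand): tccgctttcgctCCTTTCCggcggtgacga
Rps14 (GRCr8 chr18:56498248-56498277, plus strand): ttccgtctctctCTTTCCggtggaggagtc
Rpl27a (GRCr8 chr1:172974561-172974590, plus strand): gacttggtgggCTCCTCCCTCTTTCTTTTC
Rplp0 (GRCr8 chr12:46718373-46718402, minus strand): cgcaccgcacttCTCTCgccaggcgtcctc
The capitals begin at the annotated start in Rps27, Rps14 and Rplp0 and 1 base before it in Rpl27a. In Rps27, Rps14 and Rplp0 the bases directly before the capitals are also C or T, so the whole run began upstream of the start. In the whole windows, CCATNTT on either strand, a form of the motif of the factor YY1, occurred in 29.7% of the genes and in 18.3% of all windows, and CCGGAAG on either strand, a form of the ETS motif, in 31.2% of the genes and in 8.75% of all windows. These matches describe the letters of the windows only.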

How the data were processed

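Total RNA of NR8383 cells was hybridised to one-color (Cy3) Agilent rat arrays, 1 array for each replicate. The authors extracted spot intensities with Agilent Feature Extraction 11.0.1.1, and the deposited intensity of each spot was already background-subtracted and detrended within the array, with positions on rn4. The authors then normalized by percentile in GeneSpring, with no percentile or test named. The deposited series table matched the median scanner intensity at all 62976 spots of every array and served only as an alternative. Each array was scaled to its own 75th percentile of non-control spots on the log2 scale, and replicate spots of a probe were then averaged, leaving outlier spots aside. A probe counted as above background on an array when more than 50% of its spots did, and was tested when it did so on all arrays of at least 1 group. Groups were compared with limma 3.58.1 (R 4.3.3), p-values were adjusted by Benjamini-Hochberg over every tested probe, and 95% intervals come from the same fit. The fit was tested on simulated data. Array files were read with Python 3.11.15 and pandas 2.3.3, and figures were drawn with matplotlib 3.10.9. Precision is limited by the 7 arrays, and nothing says more of the replicates than that they are biological replicates of 1 cell line.

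The members and lists were chosen with earlier results of these data known. Named probes were those of Rps14 and Rps27, the 6 highest and 6 lowest log2 fold changes, the 4 smallest p, the stalk and Rpsa, pairs of related genes, untested members, the 4 genes whose probes differed most, the ribosomal proteins with other symbols (1 of which is not reported here), and up to 3 genes at each end of each other list. Others are said to be picked after their values were seen, as were Rpl35 and Rps21, which are named for their lack of overlap. The alternatives were other scalings (quantile, median, spike-in probes, the deposited table), normexp background correction (offset 50), other filters, variance models, weighted arrays, a block on the replicate number, gene means, and each array left out.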

Additional observations from a re-analysis of the deposited data

Results flagged for a closer look

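Among the 57 named and tested probes, 1 had a control array far from the other control arrays. Probe A_44_P1152601 of Rpl7 stood at 6.10 on control replicate 4, against 6.29, 6.28 and 6.32 on control replicates 1 to 3, a gap of 0.841 of the range of the group, past Dixon's 95% limit for 4 arrays. Chance alone flags about 1 in 20 groups. On the ZnO arrays this probe stood at 6.31, 6.21 and 5.99. The ZnO group, with 3 arrays, was not examined in this way.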

How the results depend on the processing

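Under all 20 alternatives, 0 ribosomal protein probes were called and 0 reached the thresholds of the study, and 0 to 6 had an unadjusted p under 0.05. The lowest adjusted p of a named probe was 0.279, with array weights. The count of members whose groups did not overlap was 6, and it was 1 with median centring, 0 with spike-in centring and 1 with gene means. It ran from 6 to 23 with 1 array left out, where fewer arrays make separation easier by construction. The median log2 fold change of the members was 0.028, and it was -0.0091 with median centring, 0.018 with quantile normalization and 0.13 with spike-in centring, which moved the median of all probes by 0.10. It ran from -0.034 to 0.074 with 1 array left out, the cause of which was not tested. Of all probes, 10 were called, all higher, against 5 without a filter on dim probes, 5 with spike-in centring, 7 to 8 with 1 array left out, 15 with array weights and 14 with trended and robust variance, the last pair with 4 lower calls each. The replicate block called 4 of all probes and 0 members. The count without overlap uses no model, so under the block it stayed at 6 by construction. The deviations of same-numbered arrays of the groups correlated at -0.091, 0.21 and -0.23, and those of other pairs of arrays between -0.40 and 0.32. These few values show no pairing by number and cannot exclude it. In the fit with the replicate block, control replicate 4 adds nothing because it has no partner. Of 1082 values of the 57 named probes under the 19 alternatives with single probes, 153 changed sign and 14 moved by more than the SD between replicates. A slide block could not be fitted, since all arrays share 1 slide. For probes not above background, such as 1 probe each of Rpl28 and Rpl36a, signal over background limits what can be said.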

Other observations

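Some ribosomal proteins hold a zinc ion in a zinc-finger fold. A list of 7 such genes, Rps27, Rps27a, Rps29, Rpl37, Rpl37a, Rpl36a and Rpl36al, was written after the values were seen, so it has no test and supports nothing by itself. The list is not complete, and its values depend on which genes it holds. It leaves out Rps27l, a relative of Rps27, with a log2 fold change of 0.017, and Rps26, with 0.063 and 0.051 at its probes. All 20 tested probes of the list had a log2 fold change above 0, between 0.0081 and 0.29, with a median of 0.099. The other 177 member probes had a median of 0.023, with 122 above 0. None of the 20 was called. Groups did not overlap for 3 of them, all probes of Rps27 or Rpl36al, beside 3 of the other 177 and 7.39% of all tested probes. On the single arrays the median of the list was 0.28, 0.075 and -0.00096 on the ZnO arrays, against -0.022, 0.0011, 0.090 and -0.077 on the control arrays, so the height of the list rested mainly on ZnO replicate 1. Without ZnO replicate 1 its median was 0.046, with 12 of 20 probes above 0, and with median centring it was 0.062, with 18 above 0.

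Rpl9, a large subunit protein named here after its values were seen, had 6 probes, 5 of them with 10 spots. Its gene mean had an SD of 0.066 on the ZnO arrays, against 0.17 on the control arrays, and each of its probes was highest on control replicate 4. Probe A_44_P266946 stood at 5.57, 5.54 and 5.49 on the ZnO arrays, against 5.39, 5.52, 5.53 and 5.80 on the control arrays. Both Rps14 probes of 10 spots were lowest on that same control array.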
